A study of Mus musculus with 30 samples.

Results

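Untreated colonocytes grown in culture were compared with vehicle-treated colonoids of mouse colon, the baselines of the study's culture experiments. The comparison holds 6 of the series' 30 samples, chosen by the submitters' titles: 3 libraries of untreated colonocytes (replicates 1, 2 and 3) and 3 of vehicle-treated colonoids (lines L42, L43 and L46). The colonocytes carry the label IMCfl/fl Smad4+, in which fl/fl denotes floxed alleles, and received no ligand. The colonoids are organoids, hollow epithelial structures cultured from colon; they received the vehicle of the ligands and carry no genotype label. The labels leave out the strain, age and number of the mice behind either system, the culture media, and whether the colonocytes are 1 clone. The design text names biological replicates without saying what separates the colonocyte libraries, so p-values measure the spread between these libraries. The descriptions number L42 and L43 under L45 and L46 under L48, with no word on what these codes stand for. Colon epithelium of Smad4+ and Smad4ΔLrig1 C57BL/6J mice and treated cultures of both systems (TNF, TGFB1 with BMP2, or all 3 ligands) make up the other samples. Each system was grown and sequenced as an experiment of its own. The culture system, its medium, its source mice, their genotype and its sequencing run therefore cannot be told apart in any difference given here.

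The lining of the colon is a single sheet of epithelial cells joined by E-cadherin and tight junctions and stiffened by simple keratins. Its stem cells at the crypt base depend on Wnt signals and give rise to absorptive, goblet, enteroendocrine and tuft cells, under transcription factors of the Cdx and Hnf families. Fibroblasts and other mesenchymal cells below the sheet make fibrillar collagens and vimentin in place of keratins and E-cadherin. TGFB and BMP ligands act on both compartments through receptor kinases that activate SMAD proteins, and Smad4 is the partner that the activated SMADs share.

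Recovered reads over the listed genes came to 37790736, 34771465 and 21629011 in colonocytes 1 to 3 and to 45729396, 50539320 and 53639354 in the colonoid lines L42, L43 and L46. The deposited table for colonocytes lists 11588 genes and that for colonoids 11688. Every listed gene had at least 1 CPM (reads of a gene scaled to a common library size) in at least 3 of the 6 libraries of its table, and a gene that is not listed for a system has no value there. The 10337 genes in both tables were scaled together, and 10336 with a mean CPM of at least 1 were tested. Values of these genes are CPM over the genes in both tables, and values of genes listed for 1 system are CPM over all genes of its table; both are given as mean ± SD (n = 3) where an error is printed. CPM is not divided by gene length, so levels are compared between libraries and not between genes. Differences are colonocytes minus colonoids on the log2(CPM + 1) scale, tested with limma and Benjamini-Hochberg adjustment at 0.05.

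The 2 systems differed in most of the genes that both express. Of the 10336 genes tested, 8500 passed the test (82.2%), 4183 of them higher in colonocytes (40.5%) and 4317 higher in colonoids (41.8%). Most of these differences were small, with 57.7% of them under 1 on the log2 scale. A difference of at least 2 as well was found for 1259 genes (12.2%), 606 higher in colonocytes (5.86%) and 653 higher in colonoids (6.32%). The values of the 3 colonocyte and the 3 colonoid libraries did not overlap for 8743 genes (84.6%), 4318 of them higher in colonocytes (41.8%) and 4425 higher in colonoids (42.8%). With shares this large, a count of called genes in a group says little by itself, and the sizes of the differences are given beside it. The counts of every list below are to be read against these shares. Log2 values correlated at a Pearson r of 0.995 to 0.998 between colonocyte libraries, 0.987 to 0.993 between colonoid lines and 0.681 to 0.699 between the systems, across genes, which are not independent replicates.

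**Figure D1:**
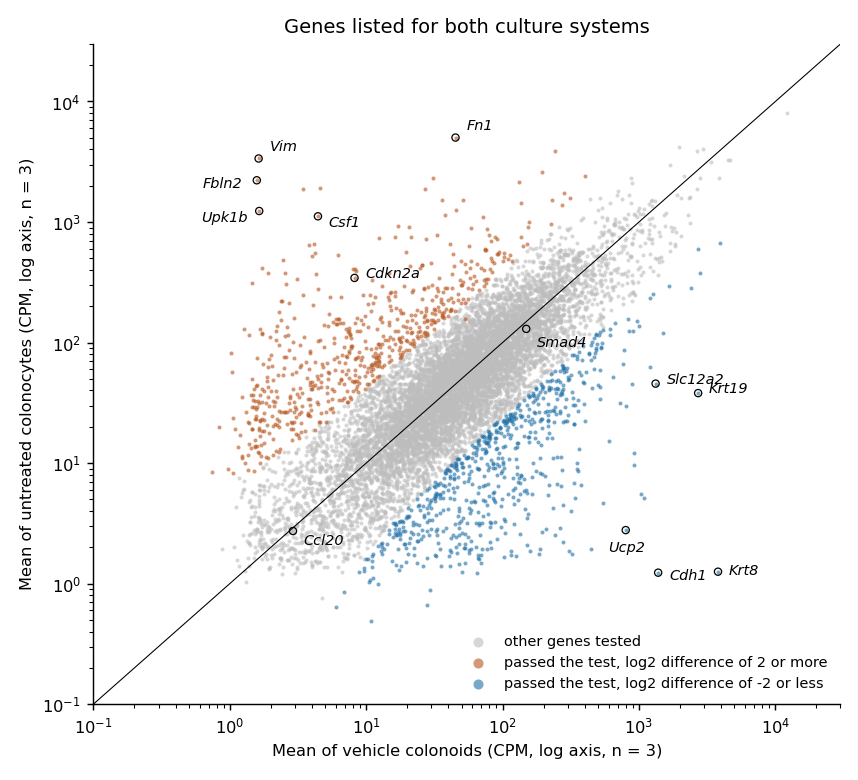
Mean CPM of each of the 10336 genes tested, in vehicle colonoids (horizontal, log axis) and untreated colonocytes (vertical, log axis), with 3 libraries a group and a line of equal levels. The 606 genes in orange and 653 in blue passed the test with a log2 difference of at least 2, and named genes are ringed.

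The epithelial genes marked the colonoids. The list of 45 genes of epithelial adhesion and identity had 44 members listed for colonoids, with a summed level of 19608 to 22760 CPM, and 19 listed for colonocytes, with a summed level of 570.1 to 649 CPM. Of the 18 members tested, 17 were higher in colonoids, none was higher in colonocytes and 1 did not pass, with a median difference of -3.32 against -0.018 over all genes tested. Another 26 members were listed for colonoids alone, and all 26 were also listed for the colon epithelium of the series. In bulk RNA, fewer cells of a type and less of an RNA in each cell cannot be told apart.

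Promoters of this list are shown because its genes stood at such different levels in the 2 systems. The only sequence looked for was the E-box CAGGTG, chosen for the factors known to bind it. It is the core sequence that the repressors Snai1, Snai2, Zeb1 and Zeb2 bind in epithelial promoters. The 250 bases before the RefSeq transcription start (GRCm38.p6) are given 5′ to 3′ on the strand of the gene, with CAGGTG and its reverse complement CACCTG in capitals. Epcam and Cldn4 were listed for colonoids alone and Spint2 was tested, and Col3a1, a fibrillar collagen listed for colonocytes alone, is given for contrast. The windows lie at chr17:87635729-87635978 on the plus strand, chr5:134946935-134947184 on the minus strand, chr7:29281978-29282227 on the minus strand and chr1:45311288-45311537 on the plus strand.
Epcam: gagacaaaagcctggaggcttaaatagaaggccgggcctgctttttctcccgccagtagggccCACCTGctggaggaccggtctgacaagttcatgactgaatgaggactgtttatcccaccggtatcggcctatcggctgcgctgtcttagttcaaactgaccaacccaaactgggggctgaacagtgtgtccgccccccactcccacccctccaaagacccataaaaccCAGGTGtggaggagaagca
Cldn4: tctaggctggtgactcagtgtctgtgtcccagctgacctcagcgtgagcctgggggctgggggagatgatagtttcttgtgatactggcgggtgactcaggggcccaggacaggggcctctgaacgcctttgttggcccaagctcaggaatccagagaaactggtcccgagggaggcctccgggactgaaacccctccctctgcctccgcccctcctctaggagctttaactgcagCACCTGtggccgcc
Spint2: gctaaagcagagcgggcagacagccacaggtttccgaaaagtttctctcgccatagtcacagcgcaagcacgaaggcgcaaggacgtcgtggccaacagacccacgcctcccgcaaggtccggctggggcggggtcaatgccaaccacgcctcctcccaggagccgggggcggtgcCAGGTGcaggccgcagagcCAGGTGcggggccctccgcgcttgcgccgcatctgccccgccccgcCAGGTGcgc
Col3a1: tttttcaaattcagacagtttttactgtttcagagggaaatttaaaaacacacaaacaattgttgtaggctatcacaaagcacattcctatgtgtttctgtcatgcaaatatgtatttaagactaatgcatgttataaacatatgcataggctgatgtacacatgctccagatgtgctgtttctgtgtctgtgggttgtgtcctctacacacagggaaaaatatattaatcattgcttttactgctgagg
The E-box stands 2 times in the Epcam window, 1 time in that of Cldn4 and 3 times in that of Spint2, and these letters are not in the Col3a1 window. Other windows of the epithelial list, among them those of Cldn2, Cldn3 and Spint1, do not hold it. RefSeq promoters were matched for 25 of the 45 epithelial genes, and Cdh1 was not among them. Of their 30 promoters, 16 (53.3%) held the E-box on either strand. It stood in 1 of 26 promoters (3.85%) of the 20 mesenchymal genes matched, that of Snai1, and in 5657 of all 32851 promoters (17.2%). These are matches of letters, and binding was not measured.

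Keratin 8 (Krt8), a keratin of simple epithelia encoded on chromosome 15 at 101996698 to 102004482 (GRCm38, minus strand, protein-coding), had the largest difference in this direction. It stood at 0.843, 1.17 and 1.76 CPM in colonocytes 1 to 3 and at 3774, 3360.5 and 4255 CPM in colonoids L42, L43 and L46. The lowest colonoid line lay far above every colonocyte library, a difference of -10.73 (SE 0.14, adjusted p = 9.38e-11). Cdh1, which encodes E-cadherin, the main adhesion molecule between epithelial cells, was 1.04, 1.53 and 1.12 CPM in colonocytes and 1443, 1374 and 1329 CPM in colonoids (-9.28, SE 0.09, adjusted p = 1.43e-11). The 3 lines agreed closely on it, with a mean of 1382 ± 57.7 CPM. Krt18, the partner of keratin 8, was at 5.34, 6.04 and 5.17 CPM in colonocytes and 1047, 838 and 1219 CPM in colonoids (-7.30, adjusted p = 2.22e-10).

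Further epithelial genes were higher in colonoids by varying amounts. Krt19 and Krt7, further simple keratins, were at 38.1 ± 7.21 and 9.56 ± 0.634 CPM in colonocytes against 2715 ± 498 and 922 ± 176 CPM in colonoids. Dsp, the desmosomal protein desmoplakin, was at 31.7 ± 3.52 against 727 ± 121 CPM (-4.47). Spint2, an inhibitor of membrane serine proteases, was at 5.62, 6.19 and 3.71 CPM in colonocytes and 1172, 1056 and 1063 CPM in colonoids (-7.50, adjusted p = 3.91e-10), and its target St14 at 13.1 ± 1.55 against 366 ± 29.0 CPM. Esrp2, a splicing regulator of epithelia, and F11r, a tight junction adhesion molecule, showed smaller differences (-1.95 and -0.74). F11r was at 272 ± 19.9 CPM even in colonocytes, against 454 ± 29.1 CPM in colonoids. Grhl1, an epithelial transcription factor, was at 4.70 ± 0.810 and 5.47 ± 1.44 CPM, with overlapping values (adjusted p = 0.422).

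The 26 members listed for colonoids alone include the defining surface and brush border genes of the intestine. Epcam, an adhesion molecule used to sort epithelial cells, was at 1619, 1634 and 1558 CPM in the lines L42, L43 and L46. Cdh17, the intestinal cadherin, was at 753 ± 52.6 CPM, Vil1, the microvillus protein villin, at 614 ± 11.8 CPM and Cldn7, a claudin of tight junctions, at 608 ± 26.0 CPM. Esrp1, the relative of Esrp2, was at 325 ± 7.51 CPM. Cdh3, which encodes P-cadherin, was the only member listed for colonocytes alone, at 41.2, 41.1 and 31.6 CPM. The label "colonocytes" names an epithelial cell type, and the data went against it: Epcam, Cdh17, Vil1, Cdx2 and Hnf4a were not listed for these cultures, and Krt8 and Cdh1 stood near 1 CPM. They are called colonocytes here after their label only.

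**Figure D2:**
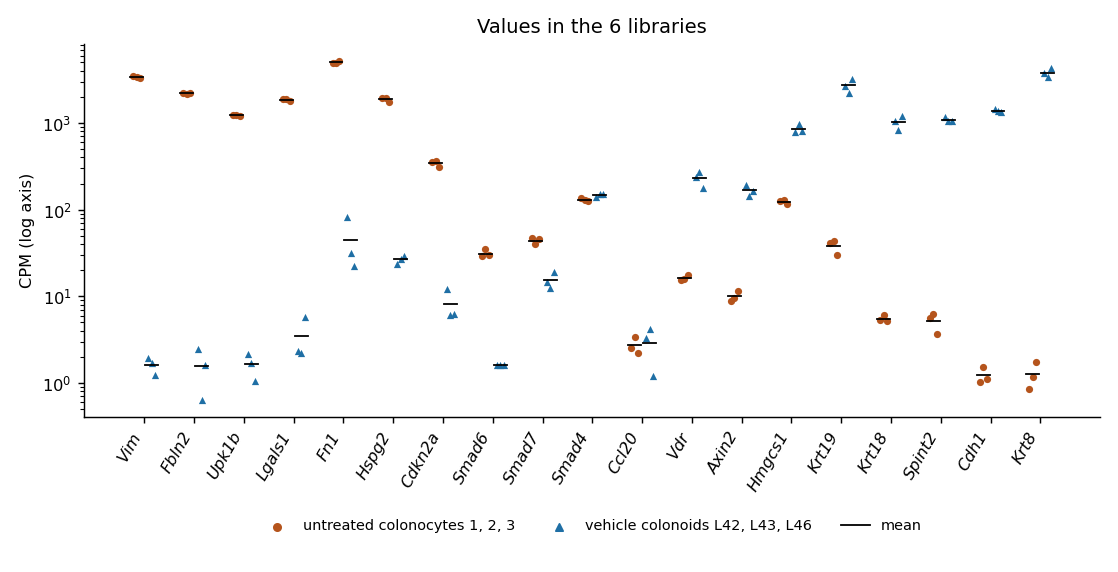
CPM (log axis) of 19 genes in each of the 6 libraries, with circles for untreated colonocytes 1, 2 and 3, triangles for vehicle colonoids L42, L43 and L46, and a bar at each mean. Vim to Smad7 lie higher in every colonocyte library and Smad4 and Vdr to Krt8 in every colonoid library, while the Ccl20 values overlap.

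Transcription factors of the intestine followed in part. Of the 30 on the list, 14 were listed for colonoids alone, 1 for colonocytes alone and 1 for neither. Hnf4a, a nuclear receptor that drives enterocyte genes, was at 736, 772 and 765 CPM in L42, L43 and L46, and Cdx2, the homeobox factor that sets intestinal identity, at 314, 168 and 275 CPM, lowest in L43. Cdx1 was at 173 ± 25.0 and Isx at 244 ± 62.9 CPM. Of the 14 tested, 7 were higher in colonoids, 3 higher in colonocytes and 4 did not pass, with a median difference of -0.16. The share that passed was below the 82.2% of all genes tested.

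Nuclear receptors were among those higher in colonoids. Pparg, a receptor for fatty acids, was at 5.69 ± 0.118 CPM in colonocytes and 150.5 ± 17.0 CPM in colonoids (-4.50). Vdr, the vitamin D receptor, was at 16.1 ± 1.16 and 231 ± 47.4 CPM (-3.74). Nr1h4, the bile acid receptor FXR, was at 8.79 ± 0.489 and 35.4 ± 7.73 CPM (-1.88). In the other direction stood Maf, a bZIP factor, at 98.2 ± 14.1 and 5.84 ± 2.22 CPM (3.91, SE 0.23), and the GATA factor Gata6 at 166 ± 25.3 and 68.4 ± 1.65 CPM (1.26). Its relative Gata4 was listed for colonocytes alone, at 40.8, 39.3 and 36.2 CPM.

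Genes of absorptive and goblet cells were found almost wholly on the colonoid side. Of 32 genes of absorptive cells, 29 were listed for colonoids alone, 2 were tested and higher in colonoids, and 1 was listed for neither. Car1, a carbonic anhydrase of the colon surface, was at 2191, 2011 and 1372 CPM in L42, L43 and L46, and Ceacam1, a surface adhesion molecule, at 1657, 1359.9 and 1562 CPM. Of 22 goblet cell genes, 18 were listed for colonoids alone, among them Muc13, a membrane mucin, at 1007 ± 90.2 CPM, Agr2, a mucin-folding enzyme, at 386 ± 131 CPM and Muc2, the gel-forming mucin, at 247 ± 122 CPM. Muc2 was highest in L42, with values of 386, 157 and 197 CPM. Creb3l1, a transcription factor of secretory cells, was the 1 goblet gene higher in colonocytes (171 ± 8.39 against 101 ± 29.6 CPM, 0.79).

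Enteroendocrine and tuft cell genes were sparser. Of 22 enteroendocrine genes, 12 were listed for colonoids alone, among them the granule protein Chgb at 172, 180.5 and 88.3 CPM, 1 for colonocytes alone and 9 for neither. Tuft cell genes were divided: of 16, 9 were listed for neither, 2 for colonoids alone (Il17rb and Lrmp) and 2 for colonocytes alone. Of the 3 tested, 1 was higher in colonocytes, Sox4 was higher in colonoids (-0.33) and Avil did not pass. The tuft cell gene Ptgs1, which encodes cyclooxygenase 1, was at 128, 126 and 103 CPM in colonocytes and 3.30, 1.06 and 0.847 CPM in colonoids (5.55, adjusted p = 8.12e-08), and Dclk1, a kinase used as a tuft cell marker, was listed for colonocytes alone at 10.2 ± 1.08 CPM. In mucosal defence, 9 of 25 genes were listed for colonoids alone and 11 for neither. Those listed for colonoids alone included Lypd8, which keeps bacteria off the epithelium, at 2001, 2636 and 1562 CPM, and Pigr, the transporter of secretory antibodies, at 1696, 2109 and 1174 CPM. Of the 5 tested, 3 were higher in colonoids, and Tlr5 and Saa3 were higher in colonocytes (0.82 and 0.98). Noxo1, a partner of the epithelial oxidase Nox1, was at 1.94 ± 0.0759 CPM in colonocytes and 187 ± 4.02 CPM in colonoids (-6.003).

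Stem cell and Wnt target genes were higher in colonoids in most cases. Of 30, 10 were listed for colonoids alone and 6 for neither. The stem cell marker Lgr5, a receptor for R-spondins, was at 214, 131 and 164 CPM in L42, L43 and L46 and was not listed for colonocytes. Of the 14 tested, 12 were higher in colonoids and 2 higher in colonocytes, with a median difference of -1.56. Axin2, a direct target of Wnt signals, was at 8.91, 9.60 and 11.5 CPM in colonocytes and 194, 143 and 163 CPM in colonoids (-3.93, adjusted p = 5.66e-09). Slc12a2, an ion cotransporter of crypt cells, was at 45.6 ± 4.22 and 1324 ± 78.4 CPM (-4.83), and Ephb2, a receptor kinase of the crypt base, at 21.2 ± 1.35 and 333 ± 66.4 CPM (-3.89). The exceptions were Cd44, a hyaluronan receptor, at 415 ± 34.7 and 212 ± 29.9 CPM (0.97), and the Polycomb gene Bmi1 at 94.5 ± 7.57 and 54.2 ± 6.38 CPM (0.79).

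Secreted genes of the Wnt pathway, ligands and antagonists together, were listed more often for the other system. Of 27 Wnt ligands, R-spondins and related genes, 10 were listed for colonocytes alone, 3 for colonoids alone and 12 for neither. The 10 were the ligands Wnt2b, Wnt4, Wnt5a, Wnt9a and Wnt11, the R-spondins Rspo1 and Rspo3, and the Wnt antagonists Sfrp1, Sfrp2 and Sfrp4. The 3 were the ligands Wnt7a, Wnt7b and Wnt10a. Wnt9a was at 48.4 ± 2.44 CPM, Wnt5a at 40.6 ± 0.192 CPM and Rspo1, an R-spondin that amplifies Wnt signals, at 23.8 ± 4.77 CPM in colonocytes. Wnt7b was listed for colonoids alone, at 4.47 ± 1.66 CPM.

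Mesenchymal and matrix genes marked the colonocytes. The list of 37 fibroblast and mesenchymal genes had 33 members listed for colonocytes, with a summed level of 25032 to 25230 CPM, and 7 listed for colonoids, with a summed level of 178 to 245 CPM. Of the 7 tested, 6 were higher in colonocytes and 1 higher in colonoids, with a median difference of 5.84. The 26 others listed for colonocytes were not listed for colonoids, and none of the 26 was listed for the series' colon epithelium. Vim, the intermediate filament vimentin of mesenchymal cells (chromosome 2 at 13573927 to 13582826, GRCm38, plus strand, protein-coding), stood at 3464, 3371 and 3261 CPM in colonocytes 1 to 3 and at 1.93, 1.72 and 1.23 CPM in colonoids L42, L43 and L46. It had the largest difference of any gene higher in colonocytes that kept its call without each library, 10.33 (SE 0.10, adjusted p = 1.43e-11).

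Fn1, the matrix protein fibronectin, was at 4931, 4929.7 and 5199 CPM in colonocytes and 81.5, 31.7 and 22.3 CPM in colonoids (6.98, SE 0.37, adjusted p = 1.16e-07). L42 had more of it than the other two lines, and still far less than any colonocyte library. Loxl2, a collagen-crosslinking oxidase, was at 640.3 ± 26.4 and 3.82 ± 0.0717 CPM (7.06), and S100a4, a calcium-binding protein of motile cells, at 129 ± 20.5 and 1.27 ± 0.212 CPM (5.84). Pdgfrb, the receptor for platelet-derived growth factor that marks many stromal cells, went the other way at low levels, 3.09, 3.16 and 3.32 CPM in colonocytes and 6.43, 6.22 and 4.60 CPM in colonoids (-0.68, adjusted p = 0.00157).

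Fibrillar collagens were among the genes with the most reads of those listed for colonocytes alone. Col5a2 was at 3246, 3273 and 3548 CPM in colonocytes 1 to 3, Col1a1 (chromosome 11 at 94936224 to 94953042, plus strand, protein-coding) at 2308, 2219 and 2021 CPM and Col3a1 at 1236, 1268 and 1103 CPM. Sparc, a collagen-binding matrix protein, was at 3282, 3348 and 2931 CPM, and Lox, which crosslinks collagen, at 1321, 1314 and 1332 CPM. The transcription factors that repress epithelial genes were listed for colonocytes alone as well: Zeb1 at 47.5 ± 2.69, Zeb2 at 39.2 ± 5.10, Twist1 at 36.8 ± 4.14, Snai2 at 30.1 ± 0.290 and Snai1 at 10.4 ± 0.578 CPM. Cdh2, which encodes N-cadherin, was at 375, 376 and 403 CPM.

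In all, 1251 genes were listed for colonocytes alone, 510 of them at 10 CPM or more and 92 at 100 CPM or more, and they held 5.07% to 5.30% of the colonocyte reads. Only 181 of them (14.5%) were listed for the series' colon epithelium. For colonoids alone, 1351 genes were listed, 655 at 10 CPM or more and 158 at 100 CPM or more, holding 6.78% to 7.61% of the colonoid reads, and 1100 (81.4%) were listed for colon epithelium. Of the genes listed for both systems 96.2% were listed for colon epithelium.

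Other genes high in colonocytes belong to no list. Upk1b, a tetraspanin of the uroplakin family first known from urothelium, was at 1238, 1245 and 1219 CPM in colonocytes and 2.158, 1.72 and 1.05 CPM in colonoids (8.89, adjusted p = 1.42e-10). A second uroplakin, Upk3b, was listed for colonocytes alone at 1024, 1056 and 821 CPM, and Myrf, a membrane-bound transcription factor, at 878, 889.6 and 694 CPM. Wt1, a zinc finger transcription factor named here after its values were seen, was listed for colonocytes alone at 326, 339 and 277 CPM. Fbln2, an extracellular matrix glycoprotein, was at 2219 ± 34.0 and 1.58 ± 0.913 CPM (9.82), and Lgals1, a galactose-binding lectin, at 1864 ± 49.5 and 3.46 ± 2.03 CPM (8.80). Csf1, the growth factor of macrophages, was at 1117, 1071 and 1157 CPM in colonocytes and 5.11, 4.63 and 3.55 CPM in colonoids (7.69, adjusted p = 9.71e-11).

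Genes high in colonoids outside the epithelial list included enzymes and transporters. Ucp2, a mitochondrial carrier, was at 3.18, 2.91 and 2.24 CPM in colonocytes and 822, 707 and 869.6 CPM in colonoids (-7.73, adjusted p = 1.38e-10). Il1rn, the antagonist of the interleukin 1 receptor, was at 1.77 ± 0.0839 and 325 ± 44.0 CPM (-6.87), and B4galnt2, a glycosyltransferase, at 4.64 ± 0.858 and 544 ± 14.8 CPM (-6.60). Gpx2, a glutathione peroxidase of the gut, and Car2, a carbonic anhydrase, were listed for colonoids alone at 1632 ± 66.9 and 1699 ± 178 CPM.

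Markers of smooth muscle stood on the colonocyte side, and most of those of leukocytes and nerve were not listed for either system. Of 14 smooth muscle genes, 10 were listed for colonocytes (summed level 4496 to 5205 CPM) and 4 for colonoids (392 to 447 CPM). Acta2, the actin of smooth muscle and myofibroblasts, was listed for colonocytes alone at 308, 295 and 445 CPM, while Mylk, the myosin light chain kinase, was higher in colonoids (6.86 ± 1.48 against 35.0 ± 16.1 CPM, -2.12). Endothelial genes summed to 60.6 to 62.5 CPM in colonocytes and 10.0 to 12.2 CPM in colonoids, with 6 of 13 listed for neither, among them the defining Pecam1 and Cdh5, and 5 listed for colonocytes alone. These 5 were Esam at 28.8 ± 3.46, Eng at 12.04 ± 0.783, Flt1 at 10.4 ± 2.75, Kdr at 3.91 ± 0.727 and Plvap at 3.19 ± 0.475 CPM. Going the other way, Vwf was listed for colonoids alone, and Egfl7, the only member tested, was higher in colonoids (-0.45, adjusted p = 0.0411 by limma). The Egfl7 call was kept without L43 and lost without each of the other libraries. Leukocyte genes summed to 92.5 to 117 CPM in colonocytes and 15.1 to 16.01 CPM in colonoids. The 18 leukocyte symbols, Adgre1 and its older name Emr1 among them, included 13 listed for neither, with the pan-leukocyte gene Ptprc. Csf1r was listed for colonocytes alone, and Itgam and Laptm5 were listed for colonoids alone. The 2 tested were both higher in colonocytes: Cd74, the invariant chain of antigen presentation, at 49.8, 47.6 and 82.4 CPM against 2.85, 6.37 and 2.20 CPM, and the lysosomal protein Cd68 at 47.2, 53.2 and 39.5 CPM against 9.21, 4.80 and 10.5 CPM. Neural and glial genes summed to 28.0 to 32.3 CPM in colonocytes and 4.25 to 7.87 CPM in colonoids, with 8 of 12 listed for neither. The part of these cell types in the other differences was not tested.

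**Figure D3:**
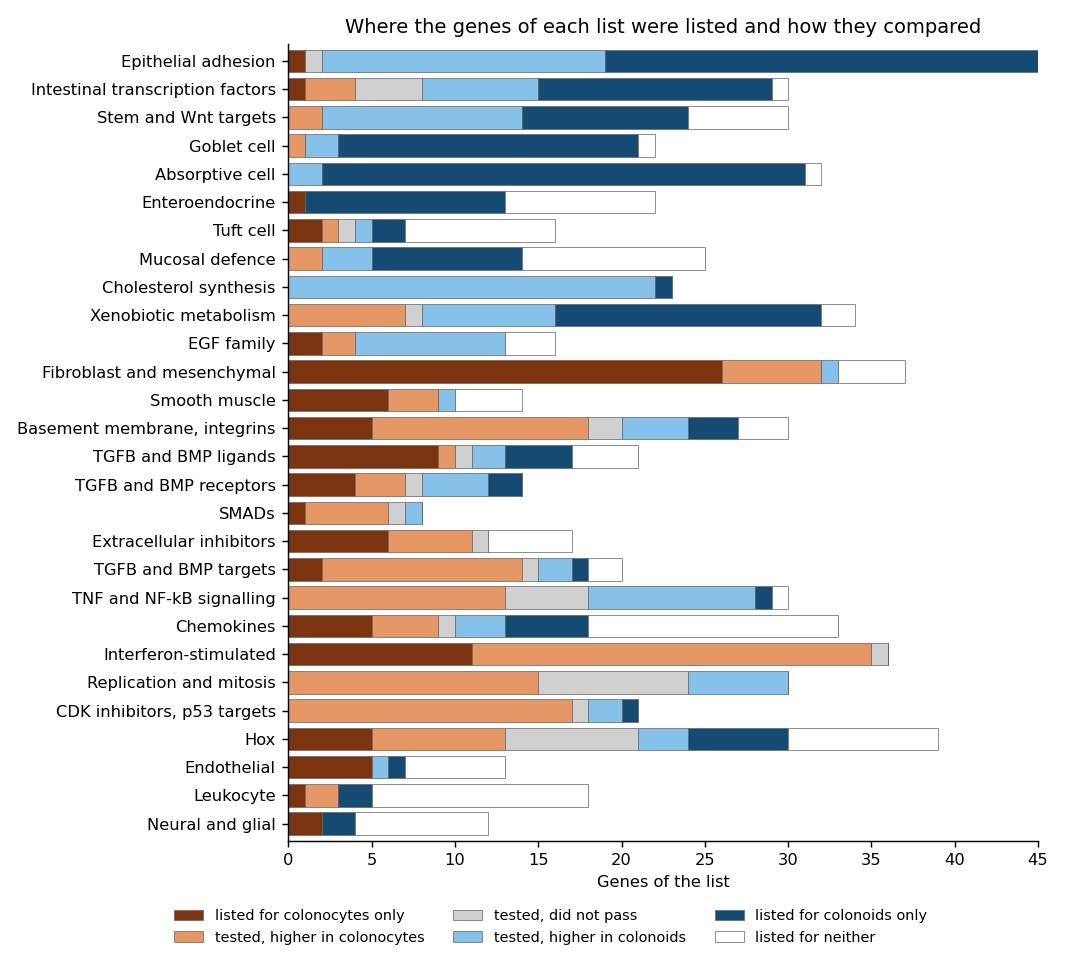
Number of genes in 28 lists (horizontal axis) by where they were listed and, where listed for both systems, by the limma test at an adjusted p of 0.05. The epithelial, goblet and absorptive lists are filled mostly by genes listed for colonoids alone or higher there, and the mesenchymal, extracellular inhibitor and interferon lists by genes on the colonocyte side.

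Laminins and integrins differed in both directions. Of 30 basement membrane and integrin genes, 19 were tested, 13 of them higher in colonocytes and 4 higher in colonoids, with a median difference of 2.30. Among all genes tested, 40.5% were higher in colonocytes and 41.8% higher in colonoids. Lamb1, the laminin beta 1 chain, was at 407, 411 and 429 CPM in colonocytes and 2.25, 1.38 and 1.57 CPM in colonoids (7.26, adjusted p = 1.5e-10). Lamb3, the laminin beta 3 chain of epithelia, was at 2.08, 2.27 and 2.24 CPM in colonocytes and 280.1, 245 and 313 CPM in colonoids (-6.45, adjusted p = 1.42e-10). The beta 1 chain was thus high where the beta 3 chain was low in all 6 libraries. Lama3, an alpha chain that assembles with it, was listed for colonoids alone at 114 ± 29.3 CPM. The subunits of its receptor were also higher in colonoids, Itgb4 at 56.6 ± 2.82 and 365 ± 107 CPM (-2.62) and Itga6 at 128 ± 13.2 and 543 ± 17.5 CPM (-2.08). Higher in colonocytes were Hspg2, the heparan sulfate proteoglycan perlecan, at 1893 ± 118 and 26.8 ± 2.81 CPM (6.09), and Itga5, the alpha subunit of the fibronectin receptor, at 136 ± 6.43 and 5.27 ± 2.03 CPM (4.50).

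The TGFB and BMP ligands were split between the systems. Of 21, 9 were listed for colonocytes alone, 4 for colonoids alone, 4 for neither and 4 were tested. Tgfb1 was at 33.5, 29.0 and 27.5 CPM in colonocytes and 24.8, 20.7 and 30.1 CPM in colonoids, with overlapping values (adjusted p = 0.11). It passed without colonoid L46, at a difference of 0.39 (adjusted p = 0.0152). Tgfb2, Tgfb3, Inhba, Gdf6 and Bmp4 were listed for colonocytes alone, at 58.4 ± 3.54, 73.8 ± 8.23, 51.5 ± 12.5, 82.5 ± 4.10 and 23.6 ± 2.09 CPM. Bmp2, the BMP ligand used in the study's treatments, was listed for colonoids alone at 34.5, 47.8 and 45.4 CPM. Bmp1, a protease that processes collagens and frees BMP and TGFB ligands, was at 204 ± 4.68 and 4.09 ± 1.83 CPM (5.39). Gdf15, a stress-induced member of the family, was the tested ligand with the largest difference toward colonoids, at 3.09, 3.86 and 1.71 CPM in colonocytes and 27.6, 19.4 and 68.7 CPM in colonoids (-3.19, adjusted p = 5.26e-05), with L46 well above the other lines.

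Of the 14 receptors on the list, 4 were listed for colonocytes alone, 2 for colonoids alone and 8 were tested. Of these 8, 3 were higher in colonocytes, 4 higher in colonoids and 1 did not pass, where 82.2% of all genes tested passed. Tgfbr2, the receptor that binds TGFB first, was at 206, 211 and 191 CPM in colonocytes and 370.5, 266 and 346 CPM in colonoids (-0.68, adjusted p = 0.000396). Bmpr2, its BMP counterpart, was at 165, 162 and 178 CPM in colonocytes and 76.7, 71.4 and 76.8 CPM in colonoids (1.16, adjusted p = 1.85e-07). The 2 type II receptors thus differed in opposite directions. Acvr1b, an activin receptor kinase, was at 9.48 ± 0.907 and 94.0 ± 5.92 CPM (-3.18), and Bambi, a decoy receptor without a kinase, at 2.52 ± 0.406 and 10.6 ± 1.60 CPM (-1.72). Tgfbr3, the co-receptor betaglycan, was listed for colonocytes alone at 41.2 ± 2.09 CPM.

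Smad4 differed little. It stood at 135, 129.8 and 124 CPM in colonocytes 1 to 3 and at 140.2, 153 and 153.5 CPM in colonoids L42, L43 and L46. The 2 groups did not overlap, but the lowest colonoid line lay just above the highest colonocyte library (-0.20, SE 0.07, adjusted p = 0.0189 by limma). The call was lost without colonocyte library 2 (adjusted p = 0.0584) and without colonocyte library 3 (adjusted p = 0.0611). Of the 7 SMAD genes tested, 5 were higher in colonocytes, Smad4 was higher in colonoids and Smad5 did not pass, with a median difference of 0.42. Over all genes tested 82.2% passed, with 40.5% higher in colonocytes. Smad2 and Smad3, which carry TGFB signals, were higher in colonocytes by 0.82 and 0.34, and Smad1, which carries BMP signals, by 0.42.

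The inhibitory SMADs showed larger differences than the signalling ones. Smad6, an inhibitor of BMP signals, was at 28.9, 35.0 and 29.7 CPM in colonocytes and 1.62, 1.64 and 1.61 CPM in colonoids (3.61, SE 0.11, adjusted p = 4.41e-09). Smad7, the inhibitor of TGFB and BMP receptors, was at 47.0, 39.7 and 45.3 CPM in colonocytes and 14.6, 12.5 and 19.1 CPM in colonoids (1.47, SE 0.14, adjusted p = 8.07e-06). Smad9 was listed for colonocytes alone at 27.7 ± 4.67 CPM. The extracellular inhibitors and ligand-binding proteins were on the colonocyte side too: of 17, 6 were listed for colonocytes alone, none for colonoids alone, 5 of the 6 tested were higher in colonocytes and 1 did not pass (median 1.44). Ltbp3, which stores latent TGFB in the matrix, was at 550.1 ± 57.1 and 4.198 ± 1.68 CPM (6.78), and Fstl1, a follistatin-like protein, was listed for colonocytes alone at 604 ± 15.6 CPM.

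Genes that TGFB and BMP signals are known to induce were mostly higher in colonocytes. Of the 15 tested of 20 on the list, 12 were higher in colonocytes, 2 higher in colonoids and 1 did not pass (median 0.91). Id3, a BMP target that blocks basic helix-loop-helix factors, was at 136, 148 and 121 CPM in colonocytes and 4.53, 1.295 and 2.00 CPM in colonoids (5.33, SE 0.27, adjusted p = 8.59e-08). Its relative Id1 was at 97.8, 104 and 82.4 CPM in colonocytes and 22.8, 23.5 and 34.3 CPM in colonoids (1.80, adjusted p = 3.19e-06). Both were higher in every colonocyte library. Pmepa1, a feedback inhibitor of TGFB signals, was at 262 ± 17.7 and 112 ± 21.9 CPM (1.23). Higher in colonoids were Tgif1, a corepressor of SMADs, at 35.4 ± 0.951 and 113 ± 9.50 CPM (-1.64), and Hes1, a Notch effector, at 30.1 ± 2.11 and 58.2 ± 7.37 CPM (-0.92). Tgfbi, a TGFB-induced matrix protein, was listed for colonoids alone at 4.13, 1.74 and 2.163 CPM.

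Genes of the TNF and NF-kB pathway differed in both directions. Of 30 genes, 28 were tested, 13 higher in colonocytes, 10 higher in colonoids and 5 not past the test, with a median difference of 0.15. These counts lie near the shares over all genes tested, 40.5% higher in colonocytes and 41.8% higher in colonoids. The receptor Tnfrsf1a was at 196, 201 and 178 CPM in colonocytes and 86.0, 78.7 and 84.7 CPM in colonoids (1.19, adjusted p = 2.41e-07). Rela, the p65 subunit of NF-kB, was at 233 ± 10.3 and 65.1 ± 6.79 CPM (1.83). Its relative Relb, a subunit of the non-canonical pathway, was at 16.8 ± 2.41 and 72.9 ± 3.26 CPM (-2.06), so the 2 subunits stood in opposite order. Nfkbia, which holds NF-kB in the cytoplasm and is itself an NF-kB target, was at 40.1, 42.2 and 34.9 CPM in colonocytes and 142, 139 and 152 CPM in colonoids (-1.86, adjusted p = 4.05e-08). Birc3, a ubiquitin ligase of the TNF receptor complex, was at 9.41 ± 1.24 and 56.8 ± 0.931 CPM (-2.48), and Casp8, the caspase that death receptors activate, at 56.7 ± 1.39 and 229 ± 24.7 CPM (-1.99).

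Ccl20 is an epithelial chemokine that attracts cells that bear the receptor Ccr6. It was low in both systems at baseline, at 2.56, 3.43 and 2.20 CPM in colonocytes and 3.30, 4.23 and 1.19 CPM in colonoids. The values overlapped, and the difference of 0.01 (SE 0.30, adjusted p = 0.971) did not pass, and its sign depended on the setting. Other chemokines were split: of 33, 15 were listed for neither system, 5 for colonocytes alone, 5 for colonoids alone and 8 were tested. Ccl2, which attracts monocytes, was at 87.7, 83.4 and 73.5 CPM in colonocytes and 0.743, 1.91 and 0.403 CPM in colonoids (5.42, adjusted p = 3.13e-08). Cx3cl1, a membrane-bound chemokine, was at 2.76, 3.34 and 3.37 CPM in colonocytes and 66.1, 51.3 and 45.8 CPM in colonoids (-3.72, adjusted p = 1.54e-08). Ccl28, a mucosal chemokine, was listed for colonoids alone at 62.0 ± 24.2 CPM.

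Interferon-stimulated genes were higher in colonocytes. Of 36, 24 of the 25 tested were higher in colonocytes, none was higher in colonoids and Irf1, an interferon-induced transcription factor, did not pass, with a median difference of 2.15. With edgeR, with DESeq2, with a variance weight per group or without colonoid L43, 1 gene of the list passed as higher in colonoids. The 11 others were listed for colonocytes alone, and all 11 were also listed for the series' colon epithelium. Ifit2, an antiviral RNA-binding protein, was at 79.7, 84.7 and 91.1 CPM in colonocytes and 4.32, 3.63 and 3.75 CPM in colonoids (4.14, adjusted p = 1.01e-09). Oasl2, of the oligoadenylate synthetase family, was at 82.2, 96.9 and 129 CPM in colonocytes and 6.17, 2.51 and 4.58 CPM in colonoids (4.29, adjusted p = 2.25e-07). The list's summed level was 1586 to 2069 CPM in colonocytes and 358 to 455 CPM in colonoids. Colonocyte library 3 had the highest Oasl2 and the fewest reads of the 6 libraries.

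Both systems expressed the genes of dividing cells. All 30 genes of DNA replication and mitosis were tested, 15 higher in colonocytes, 6 higher in colonoids and 9 not past the test, with a median difference of 0.22. A smaller share passed than the 82.2% of all genes tested. Those higher in colonocytes included Mcm2, a subunit of the replicative helicase, at 477 ± 18.6 and 167 ± 5.54 CPM (1.51), and Ccne2, the S phase cyclin E2, at 124 ± 12.9 and 17.0 ± 2.69 CPM (2.80). Those higher in colonoids included Aurkb, a mitotic kinase, at 60.6 ± 1.95 and 104 ± 17.2 CPM (-0.75), and Top2a, topoisomerase II alpha, at 415 ± 4.06 and 588 ± 87.2 CPM (-0.49).

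Most cell cycle inhibitors and p53 targets were higher in colonocytes. Of the 20 tested of 21, 17 were higher in colonocytes, 2 higher in colonoids and 1 did not pass (median 1.41). Cdkn2a, which encodes the tumour suppressors p16 and p19Arf, was at 359, 364 and 308 CPM in colonocytes and 12.3, 6.03 and 6.31 CPM in colonoids (5.29, SE 0.21, adjusted p = 2.17e-08). Mdm2, the p53-induced ubiquitin ligase that degrades p53, was at 829, 843 and 967 CPM in colonocytes and 82.4, 72.9 and 77.1 CPM in colonoids (3.49, SE 0.08, adjusted p = 8.49e-10). Ccng1, cyclin G1, and Eda2r, a death receptor, both p53 targets, were higher in colonocytes by 2.64 and 2.94. Pmaip1, a p53 target that promotes apoptosis, was the one with the largest difference toward colonoids, at 32.2 ± 1.61 and 65.7 ± 3.60 CPM (-1.005).

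Receptors of the EGF family separated by member. Of 11 tested of 16, 9 were higher in colonoids and 2 higher in colonocytes (median -1.53). Egfr was at 237, 246 and 250.02 CPM in colonocytes and 67.9, 58.7 and 69.2 CPM in colonoids (1.89, adjusted p = 1.9e-08), while Erbb3, its kinase-poor relative, was at 14.0, 14.4 and 14.0 CPM in colonocytes and 205, 165 and 204 CPM in colonoids (-3.66, adjusted p = 1.61e-09). The ligands were split too. Areg, amphiregulin, was at 3.78 ± 0.278 and 152 ± 34.9 CPM (-4.98), and Ereg, epiregulin, at 122 ± 12.8 and 23.9 ± 13.3 CPM (2.499). In the Notch pathway, 4 of 19 genes were listed for colonoids alone, 1 for colonocytes alone and 4 for neither. Beside 82.2% called over all genes tested, 6 of the 10 tested here were higher in colonocytes and 3 higher in colonoids. Among these were the receptor Notch2 at 164 ± 7.91 and 35.7 ± 6.56 CPM (2.18), and Hes6, a hairy and enhancer of split factor, at 14.5 ± 3.00 and 129 ± 10.4 CPM (-3.08).

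Genes of cholesterol synthesis were higher in colonoids without exception among those tested. All 22 tested of the 23 passed in that direction, with a median difference of -2.09, and 1 was listed for colonoids alone. Their summed level was 1438 to 1693 CPM in colonocytes and 6695 to 7068 CPM in colonoids. Hmgcs1, which makes the precursor of mevalonate, was at 125, 128 and 118 CPM in colonocytes and 792, 963 and 798 CPM in colonoids (-2.77, SE 0.08, adjusted p = 4.11e-09). Insig1, which retains the sterol sensor in the endoplasmic reticulum, was at 57.5 ± 8.43 and 407 ± 45.2 CPM (-2.81), and the sterol reductase Tm7sf2 at 1.93 ± 0.261 and 70.8 ± 7.28 CPM (-4.61). Genes of xenobiotic metabolism went both ways. Of 34, 16 were listed for colonoids alone and none for colonocytes alone, and of 16 tested 8 were higher in colonoids and 7 higher in colonocytes. Abcb1a, the efflux pump P-glycoprotein, was at 4.00 ± 0.525 and 317 ± 53.8 CPM (-5.98), and Aldh1a1, a retinal dehydrogenase, at 888 ± 28.4 and 58.5 ± 23.7 CPM (3.97).

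The colonoid lines varied more among themselves than the colonocyte libraries did. The median SD of log2 values over genes was 0.115 between colonoid lines and 0.0779 between colonocyte libraries, and 6904 genes (66.8%) had the larger SD in colonoids. The chi-square of read counts between 2 replicates, divided by the number of genes, was 4.38 to 12.9 in colonocytes and 30.3 to 70.4 in colonoids, so no pair agreed within counting error; depth was also higher in colonoids. Xist, the RNA that silences an X chromosome in female cells, was listed for colonoids alone and stood at 938, 3.09 and 971 CPM in L42, L43 and L46. L43 was thus far below the other two lines. The other 7 of the 8 sex-linked genes on the list, the Y-linked ones among them, were listed for neither system. Listed genes reached 1 CPM in at least 3 libraries of their table, so genes of 1 line alone could be missing.

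Hox genes, whose ordered expression marks position along the gut, differed between the colonoid lines. Of 39, 19 were tested, 8 higher in colonocytes, 3 higher in colonoids and 8 not past the test, so 11 of 19 passed where 82.2% of all genes tested did. Hoxb13, the most posterior gene of its cluster, was at 1.49, 1.69 and 1.90 CPM in colonocytes and 72.7, 179.9 and 121 CPM in colonoids L42, L43 and L46 (-5.45, SE 0.27, adjusted p = 7.33e-08). The posterior genes Hoxd13 and Hoxa13 were listed for colonoids alone, at 11.02, 59.0 and 24.5 CPM and 8.05, 22.7 and 12.96 CPM. In all 3 of these posterior genes L43 was the highest line. Hoxc13 was listed for colonocytes alone, at 43.2, 45.6 and 51.8 CPM.

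In more anterior genes of the Hoxb cluster the order of the lines was the opposite. Hoxb6 was at 45.7, 6.97 and 32.2 CPM in L42, L43 and L46 and Hoxb8 at 44.0, 8.18 and 22.0 CPM, with L43 the lowest. The colonocyte values were 46.7, 43.6 and 41.0 CPM for Hoxb6 and 14.5, 14.7 and 14.3 CPM for Hoxb8, and neither gene passed the test (adjusted p = 0.122 and 0.374). Single lines decided these calls: Hoxb6 passed without L42, at a difference of 1.46 (adjusted p = 0.0204), and Hoxb8 passed without L43, at -1.05 (adjusted p = 0.00164), and was 0.10 without L42. Hoxb2 was at 22.5, 23.8 and 16.9 CPM in colonocytes and 4.34, 0.361 and 3.19 CPM in colonoids (2.81, SE 0.43, adjusted p = 0.000202), and Hoxd4 at 19.0, 17.9 and 19.7 and 7.77, 0.658 and 4.11 CPM (2.24, SE 0.48, adjusted p = 0.0019). L43 was again lowest in both.

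**Figure D4:**
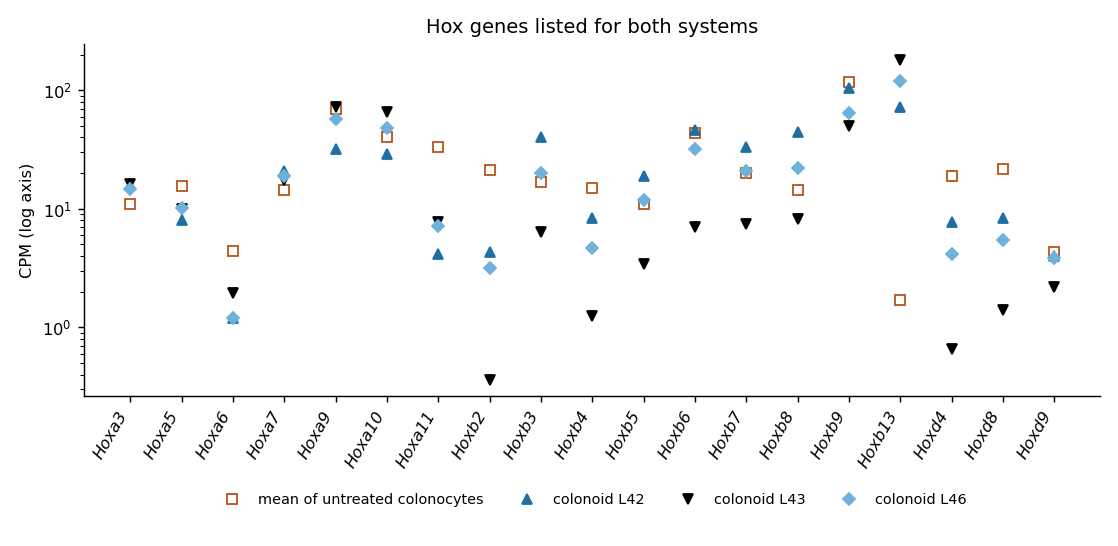
CPM (log axis) of the 19 Hox genes tested, with open squares at the mean of the 3 untreated colonocyte libraries and filled symbols for the vehicle colonoid lines L42, L43 and L46, 1 library each. L43 (black) is the lowest of the lines from Hoxb2 to Hoxb9 and the highest for Hoxb13.

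Among the genes tested with a mean of at least 10 CPM, the largest spread between lines was in Cbx6, a Polycomb protein, at 66.7, 7.67 and 84.9 CPM in L42, L43 and L46 against 159, 162 and 149 CPM in colonocytes (2.09, SE 0.71, adjusted p = 0.0203 by limma). The difference was 1.05 without L43 (adjusted p = 4.37e-06), and the call was lost without colonocyte library 3 (adjusted p = 0.0571). L43 was again apart, as it was in Trf, the iron carrier transferrin, where it was the highest at 12.3, 77.3 and 16.2 CPM. Among colonocyte libraries the largest spread was in Rn45s, the ribosomal RNA precursor, at 1297, 639 and 377 CPM in libraries 1 to 3, against 1479, 1276 and 1504 CPM in colonoids. Its difference of -1.06 (adjusted p = 0.0191) was lost by limma without colonocyte library 2 (adjusted p = 0.0527), without colonocyte library 3, where it was -0.64 (adjusted p = 0.0559), or without colonoid L46 (adjusted p = 0.0502). This RNA has no poly(A) tail, and its part in the other differences was not tested. Rtp4, an interferon-induced gene, was next at 23.4, 31.6 and 53.6 CPM, highest in library 3.

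The difference between the systems was also read in their treated libraries, which are other libraries of the same colonocytes and colonoid lines. Colonoid doses were 100 ng/mL of TNF, 3 ng/mL of TGFB1 and 10 ng/mL of BMP2. For colonocytes the labels give no dose. Under TNF the colonocyte minus colonoid difference had the same sign as at baseline for 8463 of the 8500 called genes (99.6%). Under TGFB1 with BMP2 it did so for 7321 of 8414 genes with a value (87.0%), and under all 3 for 7202 of 8403 (85.7%). For the genes called with a difference of at least 2, the counts were 1259 of 1259, 1194 of 1206 (99.0%) and 1188 of 1209 (98.3%). These are counts of signs, with no test of the change in the difference.

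Krt8 stayed apart in each condition, with a difference of -10.48 under TNF, -11.19 under TGFB1 with BMP2 and -11.08 under all 3 ligands. It was at 11926 ± 1702 CPM in colonoids given TGFB1 with BMP2 and at 4.10 ± 0.536 CPM in colonocytes given these ligands. Pmepa1 and Smad7, feedback genes of TGFB signals, lay close together there. Pmepa1 was at 884 ± 48.5 CPM in colonocytes and 891 ± 186 CPM in colonoids, a difference of 0.01. Smad7 was at 156 ± 10.8 and 158 ± 49.4 CPM, a difference of 0.03. Id1 differed more, at 92.0 ± 9.73 and 138 ± 66.0 CPM (-0.43). Smad6 kept its distance, at 74.4 ± 13.8 and 8.95 ± 5.50 CPM (3.11).

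The 12 genes with a baseline difference of at least 2 that had the opposite sign under TGFB1 with BMP2 included Itgav, a subunit of integrins that release active TGFB, and Lrig1, a restrainer of EGF receptors, Itgav being chosen after its values were seen. Itgav went from 457 ± 22.8 CPM in colonocytes and 87.0 ± 10.2 CPM in colonoids at baseline to 469 ± 34.8 and 479 ± 102 CPM, a difference of -0.01. Lrig1 was at 45.8, 44.5 and 48.3 CPM in colonocytes and 391, 404 and 384 CPM in colonoids at baseline (-3.06) and at 51.7 ± 3.21 and 56.7 ± 36.9 CPM under TGFB1 with BMP2 (0.05 on the log2 scale). In both genes the colonoid mean, and not the colonocyte mean, was the one that lay far from its baseline. Under all 3 ligands 21 such genes had the opposite sign, Vdr among them, at 35.9 ± 1.52 CPM in colonocytes and 27.5 ± 6.55 CPM in colonoids. Ccl20 under TNF was at 59.2 ± 8.48 CPM in colonocytes and 24.5 ± 14.97 CPM in colonoids.

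**Figure D5:**
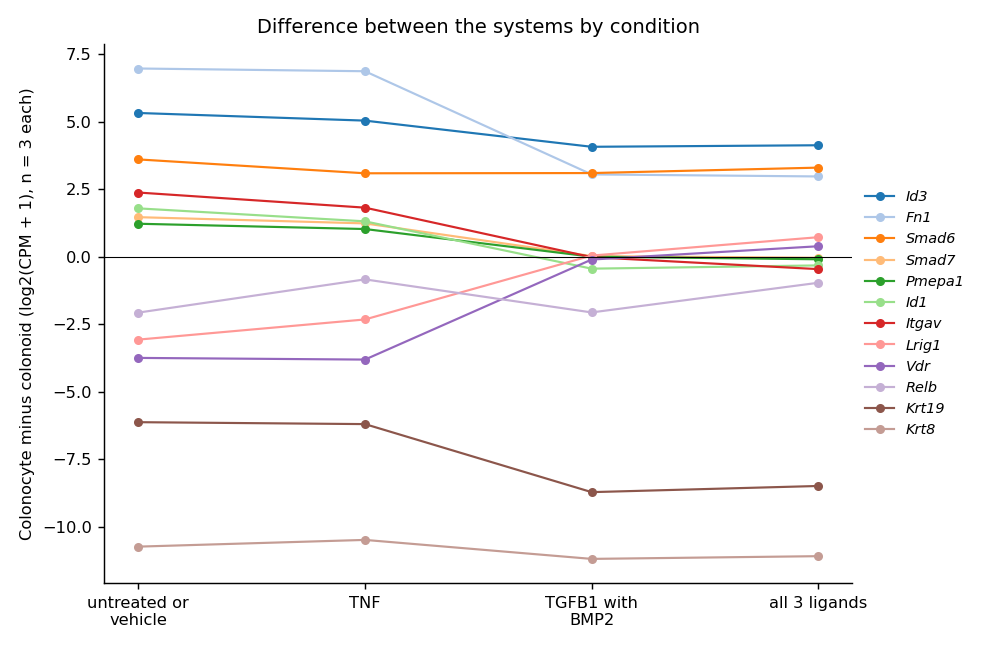
Colonocyte minus colonoid difference on the log2(CPM + 1) scale (vertical axis) for 12 genes at baseline and in the 3 treated conditions, each point from the means of 3 and 3 libraries. Smad7, Pmepa1, Itgav, Lrig1 and Vdr lie near 0 under TGFB1 with BMP2, while Krt8, Krt19, Smad6 and Id3 stay apart.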

How the data were processed

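Total RNA had been isolated with the RNeasy kit and made into TruSeq Stranded mRNA libraries, per the labels' protocols, and read as paired ends of 75 bases. The submitters' processing notes name the build mm10 and, among other tools, HTSeq 0.5.4p5, TopHat2 2.1.0 and edgeR 3.4.2, without their roles. The strand setting of the counting was not given in the sources used here; overlapping and antisense genes may share reads. The deposited values are a signal; by their steps, they are reads normalised by library size (CPM) and scaled by the authors table by table. The p-values, log2 fold changes and other columns of the authors' own comparisons in the deposited tables were not used. No column of another series was present (0 columns).

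Each deposited column was divided by its value for 1 read, and 100% of the results lay no more than 0.05 from a whole number of reads. Reads of the genes in both tables with TNF against control were scaled with TMM (edgeR 4.0.16) and tested as log2(CPM + 1) with limma 3.58.1 (R 4.3.3, trended prior, two-sided). The filter was a mean CPM of 1 and the threshold an adjusted p of 0.05. The pseudocount of 1 understates the differences of low genes. A count test on the recovered reads is given as an alternative: edgeR called 8474 genes and DESeq2 1.42.0 called 8475.

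In data simulated for this comparison, 99 of 100 genes changed 2-fold and 100 of 100 changed 4-fold were recovered (limma). Among 10336 genes there were 4 false calls. That simulation changed only 200 genes, in both directions alike, and gave both groups the same spread. In the comparison itself 82.2% of genes passed, and the colonoid lines varied more. The 4 false calls are therefore no error rate for the 8500 calls. A part of the genes that the naming rule allows is named: the rule takes the 15 largest differences in each direction, the 15 genes with the most reads listed for 1 system, the largest members of each list, any member of the epithelial, transcription factor, mesenchymal, TGFB and BMP, TNF, chemokine and Hox lists, and the 10 most variable genes of each system. Other genes listed for 1 system were chosen after their values were seen. The comparison, lists and this rule were chosen with earlier results of these data known. Gene positions are from GENCODE (GRCm38) and promoters from RefSeq (GRCm38.p6). Some genes of the lists are not reported here by name.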

Additional observations from a re-analysis of the deposited data

How the results depend on the processing

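No paired analysis was possible because the colonocyte and colonoid libraries share no replicate numbers. The 8500 calls ranged from 8065 to 8516 when each library was left out in turn, and from 8220 to 8525 over 10 other settings of pseudocount, filter, scaling, tables joined and test. Genes called with a difference of at least 2 ranged from 1239 to 1275 without 1 library, and from 918 with a pseudocount of 5 to 1392 with edgeR. Of 100 named genes that passed and were followed, 97 kept their direction and call under every setting in which they were tested. The others were Smad4, Cbx6 and Rn45s. Egfl7 was not among the 100, and its call was lost without each library except L43. Naming favoured large differences and, for some genes, required a call kept without each library, so 97 of 100 is no share for all genes. Of all 8500 calls, 7818 were kept without each library in turn. Under DESeq2, Cbx6 was at 1.58 and Rn45s at -0.86, neither past the threshold. The cause of these losses was not tested.

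The sign of the Ccl20 difference turned with a pseudocount of 5 (-0.015), with total reads in place of TMM (-0.0021), with edgeR (-0.072), with DESeq2 (-0.064), without colonocyte library 2 (-0.12) and without colonoid L46 (-0.36), with a range of -0.36 to 0.27 without 1 library. That of Hoxb8 ranged from -1.05 to 0.10 without 1 library and turned without colonoid L42. The cause was not tested. The median SD between replicates was 0.0671 in colonocytes and 0.0990 in colonoids with a pseudocount of 5, which shrinks low genes. The share of called genes with the same sign under TNF was 99.4% with total reads. The median difference over all genes was -0.034 with total reads and 0.001 with relative log expression. Depth limits genes near 1 CPM, where the library of 21629011 reads holds the fewest reads per gene, and each group has 3 libraries.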
